A study of Mus musculus with 8 samples.

Results

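The late granule genes described here are 10 genes that maturing neutrophils switch on for the contents of their granules and cytosol, S100a8, S100a9, Camp, Ngp, Ltf, Lcn2, Mmp8, Mmp9, Retnlg and Wfdc21. They were chosen by name for that role, with earlier results of these data known. All 10 were measured, by 1 probe set each, among 19938 genes. RNA of flow-sorted bone marrow cells of C57BL/6J mice was hybridised to 8 Affymetrix arrays in 4 groups of 2, in a series titled for overexpression of HMGA2, an architectural chromatin protein. The groups were KLS cells of ∆Hmga2 mice (TG KLS), KLS cells of wild-type mice (WT KLS), MEP cells of ∆Hmga2 mice (TG MEP) and MEP cells of wild-type mice (WT MEP). Each array held an independent RNA preparation pooled from 4 or 6 mice. The sources used here do not give the promoter that drives the ∆Hmga2 allele, the cells that express it, the age of the mice or any treatment. KLS cells are bone marrow cells that carry c-Kit and Sca-1 and lack lineage markers, a fraction with the stem cells and multipotent progenitors, and MEP cells are progenitors committed to megakaryocytes and red cells.

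Neutrophils fill their granules in waves as they mature in the bone marrow. Promyelocytes make the primary (azurophil) granules with myeloperoxidase and the serine proteases, and later stages make the specific and gelatinase granules and the cytosolic S100a8 and S100a9 proteins. Transcripts of the later wave are abundant in maturing neutrophils of the marrow and are not a property for which KLS or MEP cells are known. C/EBP family factors and PU.1 (encoded by Spi1) are the transcription factors best known at the promoters of these genes.

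The promoter windows of the genes that carry the results are given first, to show which motifs of these factors they hold. RefSeq windows (assembly GRCm38.p6) of 250 bases before to 50 bases after the start were found for 8 of the 10 genes, and not for Mmp9 and Wfdc21. The C/EBP motif searched was TTNNGNAA and the PU.1 motif GAGGAA, each on both strands, and in these 8 windows no match of one overlapped a match of the other. Capitals mark the matches. S100a8 and S100a9 are shown as neighbours on chromosome 3, Ltf as a gene with both motifs and Camp as the window without a match. Ngp is shown as the gene of the 10 with the smallest adjusted p for KLS minus MEP in the fit of all 8 arrays. The windows lie at chr3:90668821-90669120 (plus strand) for S100a8, chr3:90695672-90695971 (minus strand) for S100a9, chr9:110419558-110419857 (plus strand) for Ngp, chr9:111019042-111019341 (plus strand) for Ltf and chr9:109849407-109849706 (minus strand) for Camp.
S100a8: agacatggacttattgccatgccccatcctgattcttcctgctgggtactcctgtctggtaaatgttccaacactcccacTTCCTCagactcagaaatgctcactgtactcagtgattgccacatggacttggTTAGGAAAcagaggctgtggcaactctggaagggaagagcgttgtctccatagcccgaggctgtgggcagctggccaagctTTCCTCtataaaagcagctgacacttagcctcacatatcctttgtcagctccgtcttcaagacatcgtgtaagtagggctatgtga
S100a9: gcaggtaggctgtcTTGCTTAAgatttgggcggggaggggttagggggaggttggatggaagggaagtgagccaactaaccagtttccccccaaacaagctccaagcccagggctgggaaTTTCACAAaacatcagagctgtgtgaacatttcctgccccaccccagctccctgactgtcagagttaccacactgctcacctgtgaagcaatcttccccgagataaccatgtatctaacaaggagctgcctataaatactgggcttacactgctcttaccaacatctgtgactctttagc
Ngp: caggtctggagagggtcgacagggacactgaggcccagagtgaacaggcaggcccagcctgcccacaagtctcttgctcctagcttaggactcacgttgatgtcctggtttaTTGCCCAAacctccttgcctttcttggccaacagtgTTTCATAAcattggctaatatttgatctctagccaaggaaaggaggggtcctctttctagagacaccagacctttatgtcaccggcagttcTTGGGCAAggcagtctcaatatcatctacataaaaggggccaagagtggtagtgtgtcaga
Ltf: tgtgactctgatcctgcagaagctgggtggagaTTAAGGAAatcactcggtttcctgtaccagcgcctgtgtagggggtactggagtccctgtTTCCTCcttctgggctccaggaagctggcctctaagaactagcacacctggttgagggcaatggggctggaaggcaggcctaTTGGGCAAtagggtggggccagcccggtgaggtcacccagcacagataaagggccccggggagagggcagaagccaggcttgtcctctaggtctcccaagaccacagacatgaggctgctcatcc
Camp: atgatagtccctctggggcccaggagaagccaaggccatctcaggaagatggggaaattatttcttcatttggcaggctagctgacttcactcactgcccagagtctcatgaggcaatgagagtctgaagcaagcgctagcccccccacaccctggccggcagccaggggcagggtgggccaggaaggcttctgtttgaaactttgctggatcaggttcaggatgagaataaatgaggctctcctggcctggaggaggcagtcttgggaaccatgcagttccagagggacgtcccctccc
The C/EBP motif stood in 7 of the 8 windows, and in 40.7% of all 32851 promoter windows of this length. The PU.1 motif stood in 4 of the 8 (S100a8, Ltf, Lcn2 and Mmp8), and in 28.3% of all windows. Counted from the start, with the first base before it as position -1, the C/EBP matches began at position -117 for S100a8, at -236 and -130 for S100a9, at -138, -102 and -11 for Ngp and at -217 and -75 for Ltf. These are matches of letters and not shown to be binding sites.

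Levels are log2 intensities after quantile normalization, which gives every array the same distribution. The medians of the deposited arrays lay between 6.34 and 6.45. The level of Hmga2, the labelled gene, was 7.35 and 7.11 on the TG KLS arrays, against 6.85 and 7.12 on the WT KLS arrays, and 6.95 and 6.99 on the TG MEP arrays, against 6.70 and 6.74 on the WT MEP arrays. Over both cell types it differed by 0.25 ± 0.11 on the log2 scale (SE, limma adjusted p = 0.999), and the sources used here do not say whether its probe set reads the ∆Hmga2 transcript. All 8 measured stem and progenitor markers had a KLS minus MEP difference above 0, and 5 passed the threshold (1.2% of all genes called higher). All 9 measured erythroid markers had a KLS minus MEP difference below 0. Of these 1 (the transferrin receptor gene Tfrc) passed (0.396% of all genes called lower). One array stands apart. The mean level of the 9 measured B-lineage markers was 6.87 and 6.93 on the TG MEP arrays, against 9.07 on WT MEP 1 and 6.96 on WT MEP 2. That of the 8 stem and progenitor markers was 6.48 and 6.57 on the TG MEP arrays, against 7.23 on WT MEP 1 and 6.47 on WT MEP 2. The main results that rest on the WT MEP arrays are therefore given with and without WT MEP 1.

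The clearest pattern of the late granule genes was their low level on both TG MEP arrays. Each of the 10 genes was lower on both TG MEP arrays than on any of the other 6 arrays, a pattern that 6.98% of all genes showed. It held for 10 of 10 with the values as deposited (4.86% of all genes) and with arrays centred on their medians (4.48%). The mean log2 level of the 10 genes was 10.28 and 10.26 on the TG KLS arrays and 10.05 and 11.02 on the WT KLS arrays. It was 8.85 and 8.91 on the TG MEP arrays, against 10.40 and 9.67 on the WT MEP arrays. In bulk RNA of sorted cells, fewer cells of a type and less RNA per cell cannot be told apart.

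**Figure D1:**
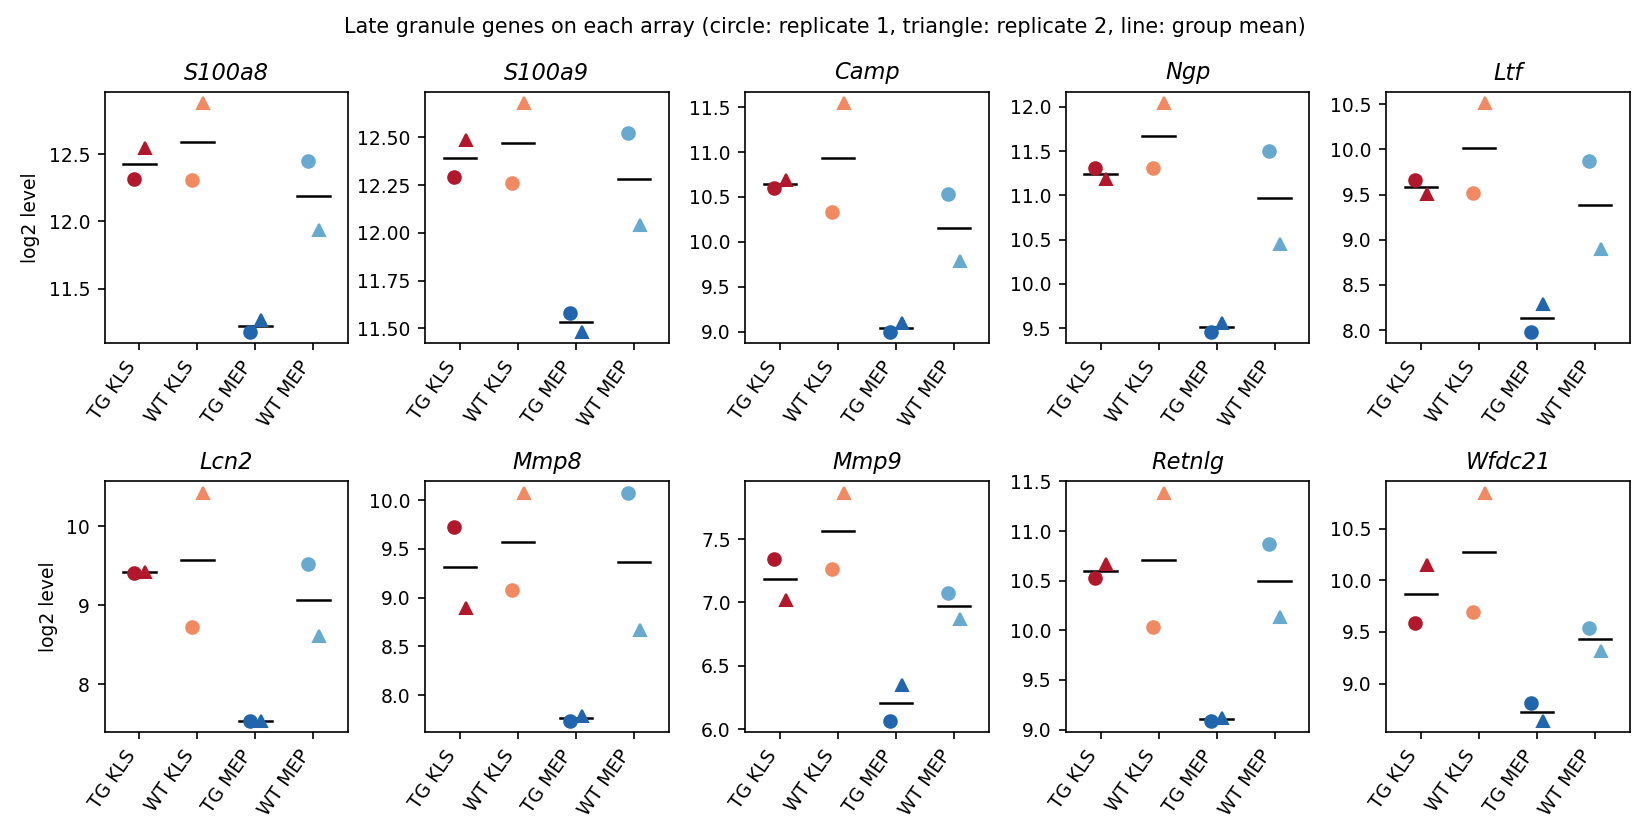
Log2 level (quantile normalized intensity, vertical axis) of each of the 10 late granule genes, one panel per gene, with one point per array and a line at the mean of each group of 2 arrays. In every panel both TG MEP points lie below the points of the other 6 arrays. The gap between the 2 WT MEP points runs from 0.20 (Mmp9) to 1.41 (Mmp8).

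S100a8 and S100a9 encode the subunits of calprotectin, a calcium- and zinc-binding complex that makes up much of the neutrophil cytosol and acts on the receptors Tlr4 and Ager. The S100a8 log2 level (probe set 10493831) was 12.31 and 12.54 on the TG KLS arrays, against 12.31 and 12.88 on the WT KLS arrays, and 11.18 and 11.27 on the TG MEP arrays, against 12.45 and 11.94 on the WT MEP arrays. The S100a9 log2 level (probe set 10499861) was 12.29 and 12.49 on the TG KLS arrays, against 12.26 and 12.68 on the WT KLS arrays, and 11.58 and 11.48 on the TG MEP arrays, against 12.52 and 12.04 on the WT MEP arrays. Both genes were lowest on the 2 TG MEP arrays, which did not overlap with any other array, while the TG KLS and WT KLS arrays overlapped.

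Camp encodes the cathelicidin precursor, an antimicrobial peptide of specific granules, and Ngp a granule protein of the cystatin and cathelicidin superfamily. The Camp log2 level (probe set 10597098) was 10.60 and 10.69 on the TG KLS arrays, against 10.33 and 11.54 on the WT KLS arrays, and 9.0 and 9.09 on the TG MEP arrays, against 10.54 and 9.78 on the WT MEP arrays. The Ngp log2 level (probe set 10589535) was 11.31 and 11.19 on the TG KLS arrays, against 11.30 and 12.04 on the WT KLS arrays, and 9.46 and 9.56 on the TG MEP arrays, against 11.50 and 10.45 on the WT MEP arrays. For Ngp, WT MEP 1 was higher than 3 of the 4 KLS arrays. For Camp, both TG KLS arrays lay above both WT MEP arrays, by a small margin over WT MEP 1.

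Ltf encodes lactoferrin, which binds iron, and Lcn2 encodes lipocalin 2, which binds the iron carriers of bacteria. The Ltf log2 level (probe set 10589703) was 9.66 and 9.5 on the TG KLS arrays, against 9.52 and 10.51 on the WT KLS arrays, and 7.98 and 8.29 on the TG MEP arrays, against 9.88 and 8.90 on the WT MEP arrays. The Lcn2 log2 level (probe set 10481627) was 9.41 and 9.42 on the TG KLS arrays, against 8.73 and 10.42 on the WT KLS arrays, and 7.54 and 7.54 on the TG MEP arrays, against 9.53 and 8.61 on the WT MEP arrays. The pair of TG arrays lay close together for Lcn2 in each cell type, while its WT arrays were far apart in both.

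Mmp8 encodes neutrophil collagenase of the specific granules and Mmp9 the gelatinase that gives the gelatinase granules their name. The Mmp8 log2 level (probe set 10583100) was 9.72 and 8.90 on the TG KLS arrays, against 9.07 and 10.08 on the WT KLS arrays, and 7.74 and 7.79 on the TG MEP arrays, against 10.07 and 8.67 on the WT MEP arrays. The Mmp9 log2 level (probe set 10478633) was 7.35 and 7.02 on the TG KLS arrays, against 7.26 and 7.87 on the WT KLS arrays, and 6.07 and 6.35 on the TG MEP arrays, against 7.07 and 6.87 on the WT MEP arrays. For Mmp8, the level on WT MEP 1 was above that of 3 of the 4 KLS arrays, and for Mmp9 it was below both WT KLS arrays.

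Retnlg encodes a resistin-like cytokine of neutrophils, and Wfdc21 a small secreted protein with a whey acidic protein domain. The Retnlg log2 level (probe set 10436100) was 10.53 and 10.67 on the TG KLS arrays, against 10.03 and 11.39 on the WT KLS arrays, and 9.09 and 9.12 on the TG MEP arrays, against 10.87 and 10.14 on the WT MEP arrays. The Wfdc21 log2 level (probe set 10379736) was 9.59 and 10.15 on the TG KLS arrays, against 9.70 and 10.85 on the WT KLS arrays, and 8.81 and 8.64 on the TG MEP arrays, against 9.54 and 9.32 on the WT MEP arrays. Wfdc21 was the only one of the 10 whose 4 KLS arrays all lay above all 4 MEP arrays, as 4.41% of all genes did. With the values as deposited or with arrays centred on their medians 0 of the 10 did so, as 3.8% and 2.79% of all genes did under those scalings.

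By group mean, 9 of the 10 genes had the same order, with TG MEP lowest, then WT MEP, TG KLS and WT KLS. Mmp8 differed in that TG KLS stood below WT MEP. Of the neighbours in that order, both TG MEP arrays lay below both WT MEP arrays for 10 of 10 genes (17.2% of all genes). Both TG KLS arrays lay above both WT MEP arrays for 2 of 10, Camp and Wfdc21 (13.8% of all genes). The TG KLS and WT KLS arrays overlapped for all 10: both TG KLS arrays were below both WT KLS arrays for 0 of 10 (17.2% of all genes) and above them for 0 of 10 (11.7%).

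The first comparison asks whether the genes differ between the KLS and MEP fractions. Over both genotypes Ngp was higher in KLS cells, by 1.22 ± 0.24 on the log2 scale or 2.33-fold (SE, limma with Benjamini-Hochberg adjustment over all genes, adjusted p = 0.0458). It was the only 1 of the 10 past the adjusted p threshold of 0.05, and 1.2% of all genes were called higher in KLS cells. With each array left out in turn Ngp passed in 1 of 8 fits, that without WT MEP 1, and its adjusted p ran from 0.00693 to 0.166. Of the 10 genes, 4 passed without WT MEP 1, where 2.89% of all genes were called higher, and 6 without WT KLS 1 (Ngp not among them), where 0.476% were. Without any of the other 6 arrays 0 passed, with between 0.00502% (without TG MEP 1) and 0.933% (without TG KLS 2) of all genes called higher. The next genes by adjusted p were S100a8, at 0.80 ± 0.16 (adjusted p = 0.0501), Mmp9, at 0.78 ± 0.16 (adjusted p = 0.0501), and Camp, at 1.19 ± 0.26 (adjusted p = 0.0586). The differences of the other 6 lay between 0.52 (S100a9) and 1.19 (Lcn2) with adjusted p between 0.0821 (Wfdc21) and 0.265 (Mmp8). All 10 were above 0 with an unadjusted p under 0.05, as 8.02% of all genes were in that direction, and the median difference was 0.93, against 0.013 over all genes.

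In TG mice both KLS arrays lay above both MEP arrays for 10 of 10 genes, which 21.3% of all genes did. The KLS minus MEP difference was 1.87 ± 0.48 for Lcn2 (3.67-fold), 1.74 ± 0.33 for Ngp (3.34-fold), 1.59 ± 0.36 for Camp (3.02-fold) and 1.55 ± 0.47 for Mmp8 (2.92-fold). It was 1.5 ± 0.39 for Retnlg, 1.45 ± 0.37 for Ltf, 1.21 ± 0.23 for S100a8, 1.14 ± 0.34 for Wfdc21, 0.97 ± 0.22 for Mmp9 and 0.86 ± 0.20 for S100a9. In the fit of all 8 arrays 0 of 10 passed the adjusted threshold (limma, adjusted p from 0.118 to 0.288), against 0.135% of all genes called higher, and 10 of 10 had an unadjusted p under 0.05, against 6.69% of all genes. When only the 4 TG arrays entered the fit, 7 of 10 passed (1.4% of all genes): Lcn2, Ngp, Camp, Retnlg, Ltf, S100a8 and S100a9, with adjusted p from 0.00434 (Lcn2) to 0.0494 (S100a9). The 2 fits use the same TG differences and differ in whether the spread of the WT arrays enters the estimate of error.

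In WT mice both KLS arrays lay above both MEP arrays for 2 of 10 genes, Mmp9 and Wfdc21, and for 19.9% of all genes. With arrays centred on their medians this held for 1 of 10, Mmp9 (15.5% of all genes). The KLS minus MEP difference was 0.84 ± 0.34 for Wfdc21 and 0.59 ± 0.22 for Mmp9, the 2 with an unadjusted p under 0.05 (4.18% of all genes). No gene of the 10 passed the adjusted threshold (limma, adjusted p from 0.473 to 0.945, with 0.00502% of all genes called higher), and the median was 0.55. WT MEP 1 lay above WT KLS 1 for 8 of the 10, all but Mmp9 and Wfdc21 (37.2% of all genes). The median was 0.98 without WT KLS 1 and 0.12 without WT KLS 2, and 0.94 without WT MEP 1 and 0.14 without WT MEP 2.

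**Figure D2:**
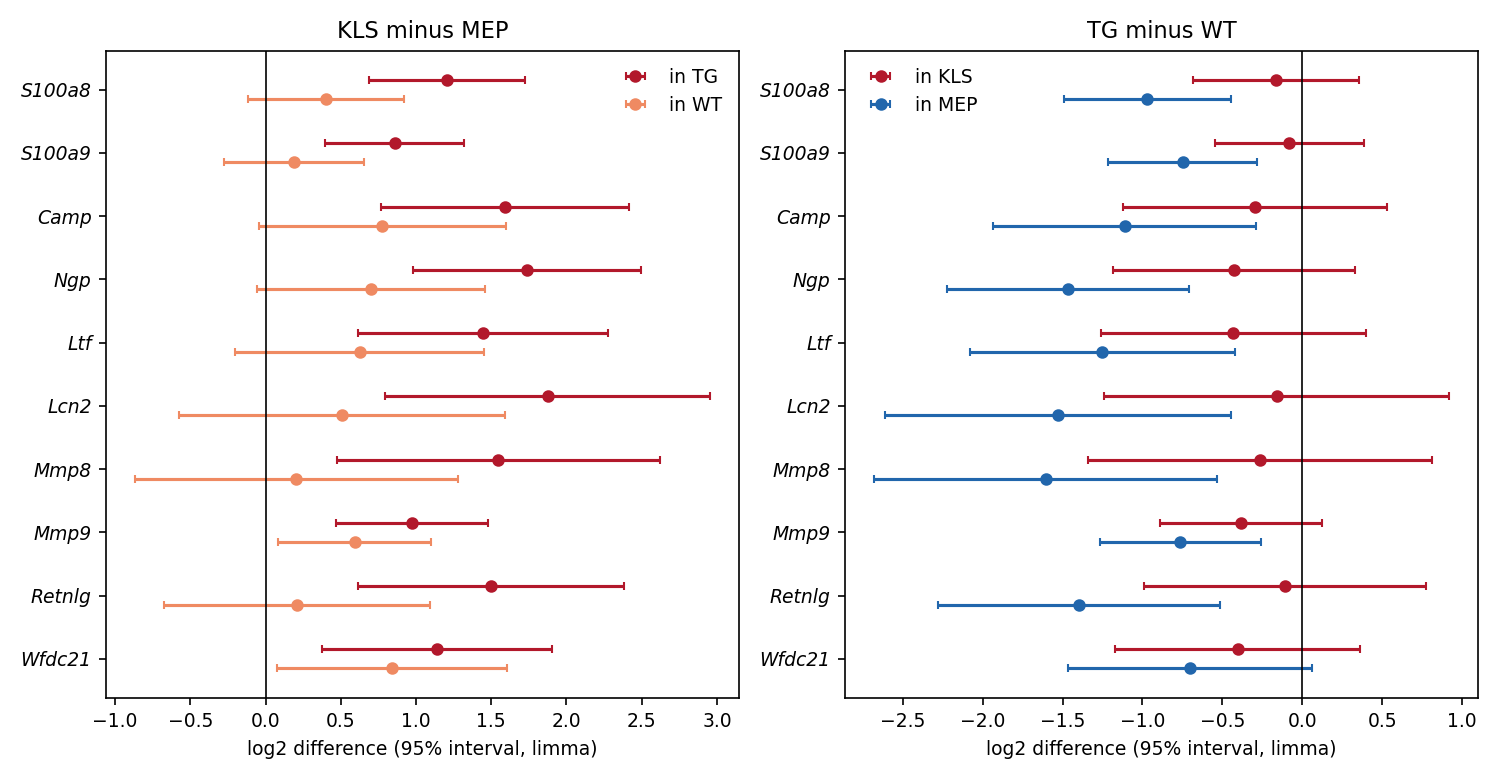
Log2 difference (horizontal axis) with its 95% interval from limma, for each of the 10 late granule genes (rows), with KLS minus MEP in TG and in WT mice on the left and TG minus WT in KLS and in MEP cells on the right. The KLS minus MEP differences are above 0 for all 10 and larger in TG than in WT mice as point values, and the TG minus WT differences in MEP cells are below 0 for all 10.

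The second comparison asks how the ∆Hmga2 genotype bears on these genes. In MEP cells the TG minus WT difference was below 0 for all 10 genes, with a median of -1.18, against -0.0078 over all genes. It was -1.61 ± 0.47 for Mmp8 (3.04-fold lower in TG), -1.53 ± 0.48 for Lcn2 (2.88-fold), -1.47 ± 0.33 for Ngp (2.76-fold) and -1.40 ± 0.39 for Retnlg (2.63-fold). It was -1.25 ± 0.37 for Ltf, -1.11 ± 0.36 for Camp, -0.97 ± 0.23 for S100a8, -0.76 ± 0.22 for Mmp9, -0.75 ± 0.20 for S100a9 and -0.70 ± 0.34 for Wfdc21. None of these passed after adjustment over all genes: 0 of 10 were called by limma (adjusted p = 1.00 for each), as were 0% of all genes. An unadjusted p under 0.05 was found for 9 of 10, all but Wfdc21, against 2.47% of all genes. Without WT MEP 1 the median was -0.75, and all 10 differences stayed below 0. Without WT MEP 2 the median was -1.61, with Ngp at -2.0. Each of these 2 fits leaves 1 WT MEP array, so only the sizes of the differences are given. WT MEP 1, the array with high B-lineage markers, was higher than WT MEP 2 for 10 of 10 late granule genes (37.6% of all genes), and both TG MEP arrays lay below WT MEP 2 as well for all 10. The part that whatever sets WT MEP 1 apart has in the difference was not tested.

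**Figure D3:**
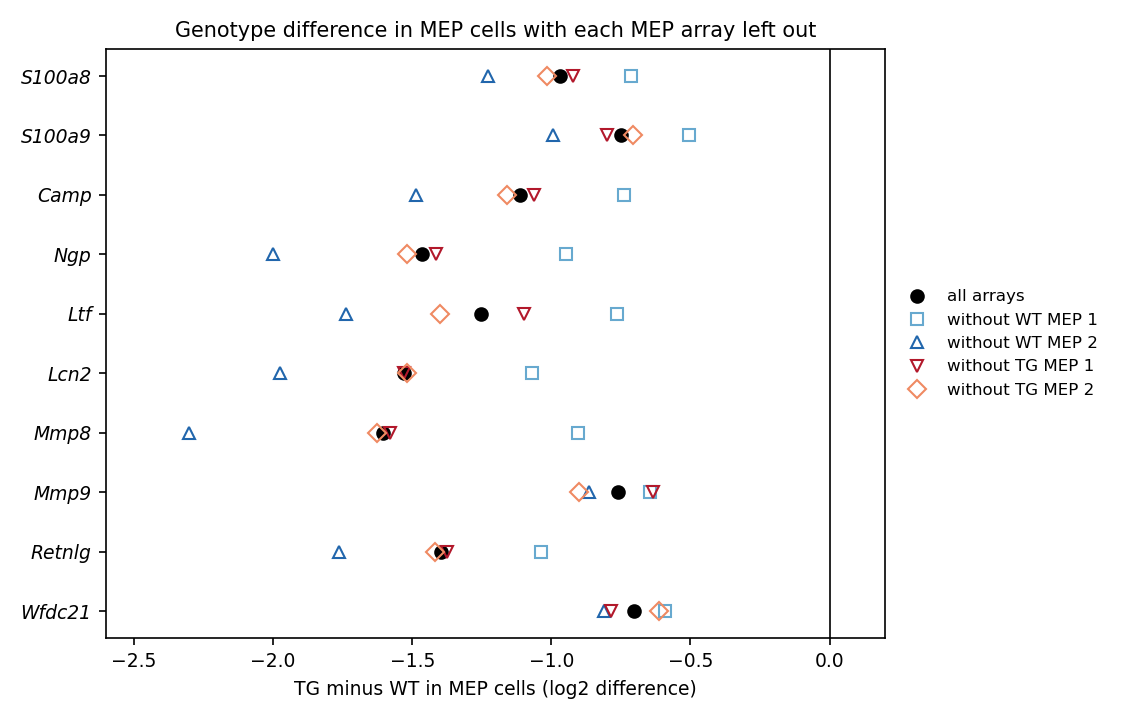
TG minus WT log2 difference in MEP cells (horizontal axis) of each of the 10 late granule genes (rows), with all arrays and with each MEP array left out in turn. For 9 of the 10 genes the difference is nearest to 0 without WT MEP 1 and farthest from 0 without WT MEP 2, for Mmp9 these are the fits without TG MEP 1 and without TG MEP 2, and none of the points crosses 0.

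In KLS cells the TG minus WT differences lay nearer to 0, from -0.43 (Ngp and Ltf) to -0.08 (S100a9), with a median of -0.28, against -0.017 over all genes. Of the 10, 0 passed the adjusted threshold (limma, adjusted p = 1.00) and 0 had an unadjusted p under 0.05, against 0% and 1.03% of all genes. Without WT KLS 2 the median was 0.15. Averaged over both cell types the differences lay between -0.95 (Ngp) and -0.41 (S100a9), with 0 of 10 past the adjusted threshold (0% of all genes) and 10 of 10 at an unadjusted p under 0.05 (2.07% of all genes). Their median was -0.73, and it was -0.55 without WT MEP 1 and -0.42 without WT KLS 2.

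Whether the genotype difference itself differs between the cell types was tested as the interaction, the TG minus WT difference in KLS minus that in MEP cells. It was above 0 for all 10 genes, from 0.30 (Wfdc21) to 1.37 (Lcn2), with a median of 0.82, and 0 of 10 passed after adjustment over all genes (limma, 0% of all genes). An unadjusted p under 0.05 was found for 3 of 10, against 1.16% of all genes: S100a8 (0.80 ± 0.32), S100a9 (0.67 ± 0.29) and Retnlg (1.29 ± 0.55). The median was 0.48 without WT MEP 1, 1.25 without WT MEP 2, 0.49 without WT KLS 1 and 1.36 without WT KLS 2. A difference of the genotype effect between KLS and MEP cells was therefore not established for any of these genes with 2 arrays per group.

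The spread between the 2 arrays of a group was itself shared by the 10 genes. In WT KLS cells the first array minus the second was below 0 for all 10, with a median of -1.0 and sizes from 0.42 (S100a9) to 1.70 (Lcn2). A difference as far below 0 as that median was seen in 0.642% of all genes. In WT MEP cells it was above 0 for all 10, with a median of 0.74 and a range from 0.20 (Mmp9) to 1.41 (Mmp8), and 3.68% of all genes were as far above 0 as that median. WT KLS 2 was the highest of the 8 arrays for 10 of 10 genes (12.8% of all genes) and above WT KLS 1 for 10 of 10 (43.4%). With the values as deposited (14.7% of all genes) or with arrays centred on their medians (9.29%) it was highest for 9 of 10, all but Mmp8. In the TG pairs both signs occurred among the genes, with medians of -0.05 in TG KLS and -0.07 in TG MEP cells. With mixed signs these medians do not measure how close the pairs lay. Sizes reached 0.83 (Mmp8) in TG KLS and 0.30 (Ltf) in TG MEP cells. For Mmp9 and Wfdc21 the TG KLS gap (0.33 and -0.56) was larger in size than the WT MEP gap (0.20 and 0.22).

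**Figure D4:**
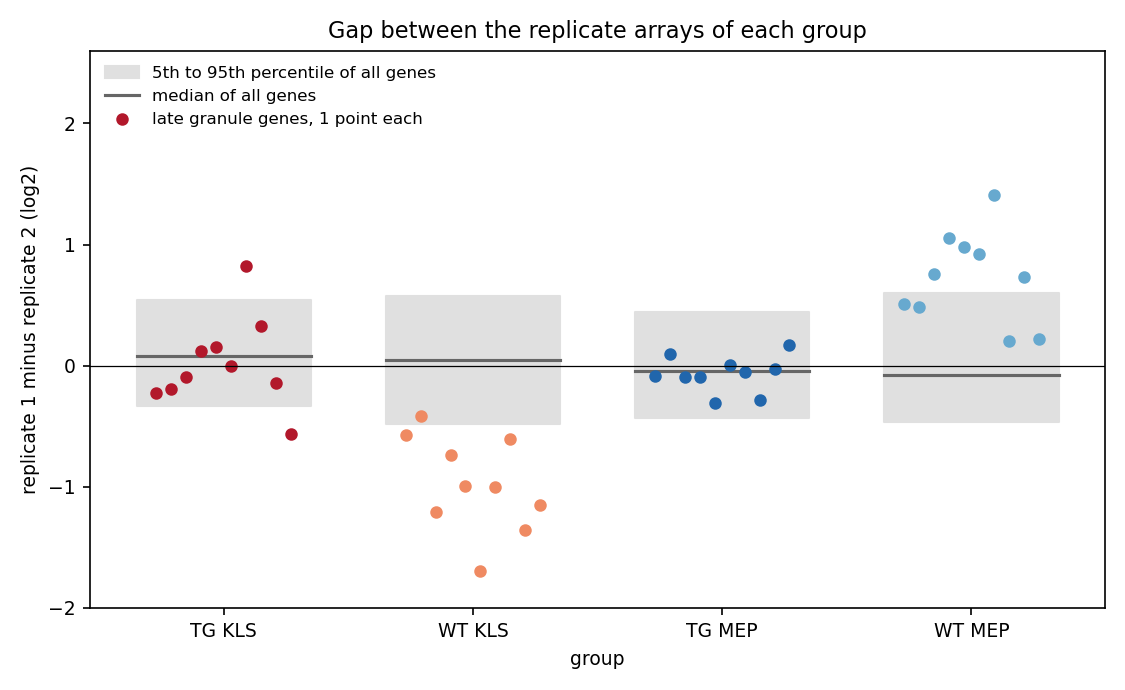
Log2 level on the first array of a group minus that on the second (vertical axis) for each of the 10 late granule genes, by group (horizontal axis). Grey bands span the central range of all genes, from the 5th to the 95th percentile, and grey lines are their medians. All WT KLS points lie below 0 and all WT MEP points above it, while the TG points lie on both sides of 0.

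The other genes of mature neutrophils shared the pattern of the 10 in part, with 22 of the 33 measured ones lowest on both TG MEP arrays (6.98% of all genes). Their list held 37 genes, of which 33 were measured, and their mean log2 level was 7.54 and 7.23 on the TG KLS arrays, against 7.27 and 7.83 on the WT KLS arrays, and 6.35 and 6.45 on the TG MEP arrays, against 7.32 and 6.76 on the WT MEP arrays. In KLS minus MEP over both genotypes, 8 of 33 were called higher (1.2% of all genes) and 0 lower (0.396%). The median was 0.70, and 0.90 without WT MEP 1. The largest differences among the called genes were those of Serpinb1a, an inhibitor of the neutrophil serine proteases (2.27 ± 0.33, adjusted p = 0.0220), Hp, which encodes haptoglobin (1.73 ± 0.21, adjusted p = 0.0117), Trem3, a myeloid receptor (1.33 ± 0.25, adjusted p = 0.0440), and Slpi, a secreted protease inhibitor (1.18 ± 0.20, adjusted p = 0.0356). In TG minus WT in MEP cells 0 of 33 were called, all 33 differences were below 0 and the median was -0.43. Without WT MEP 1, 29 of 33 were below 0 and the median was -0.28. Both TG MEP arrays lay below both WT MEP arrays for 23 of 33 (17.2% of all genes). The neutrophil surface marker Ly6g, chosen after its values were seen, had log2 levels of 7.46 and 7.79 on the TG KLS arrays, against 7.81 and 9.74 on the WT KLS arrays, and 6.5 and 6.24 on the TG MEP arrays, against 8.10 and 7.33 on the WT MEP arrays. In the list as a whole, WT MEP 1 was above WT MEP 2 for 32 of 33 and WT KLS 2 above WT KLS 1 for 28 of 33.

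The primary granule genes (Mpo, Elane, Prtn3, Ctsg, Ms4a3 and Prss57) had a different array pattern from the late ones in KLS cells. Their mean log2 level was 10.20 and 9.02 on the TG KLS arrays, against 9.88 and 9.01 on the WT KLS arrays, and 6.48 and 6.71 on the TG MEP arrays, against 7.25 and 6.84 on the WT MEP arrays. WT KLS 2 was above WT KLS 1 for 0 of the 6, against 10 of 10 late granule genes. Of the 6, 5 were called higher in KLS than in MEP cells (1.2% of all genes), with a median of 3.0. Between TG and WT MEP cells 0 were called, with a median of -0.41 (-0.30 without WT MEP 1). The low level on TG MEP arrays was shared with the late genes. Both TG MEP arrays lay below the other 6 arrays for 5 of the 6 primary granule genes (6.98% of all genes). They lay below both WT MEP arrays for 5 of the 6 (17.2% of all genes). The difference between the lists in KLS cells is a description of 2 WT arrays and has no test.

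**Figure D5:**
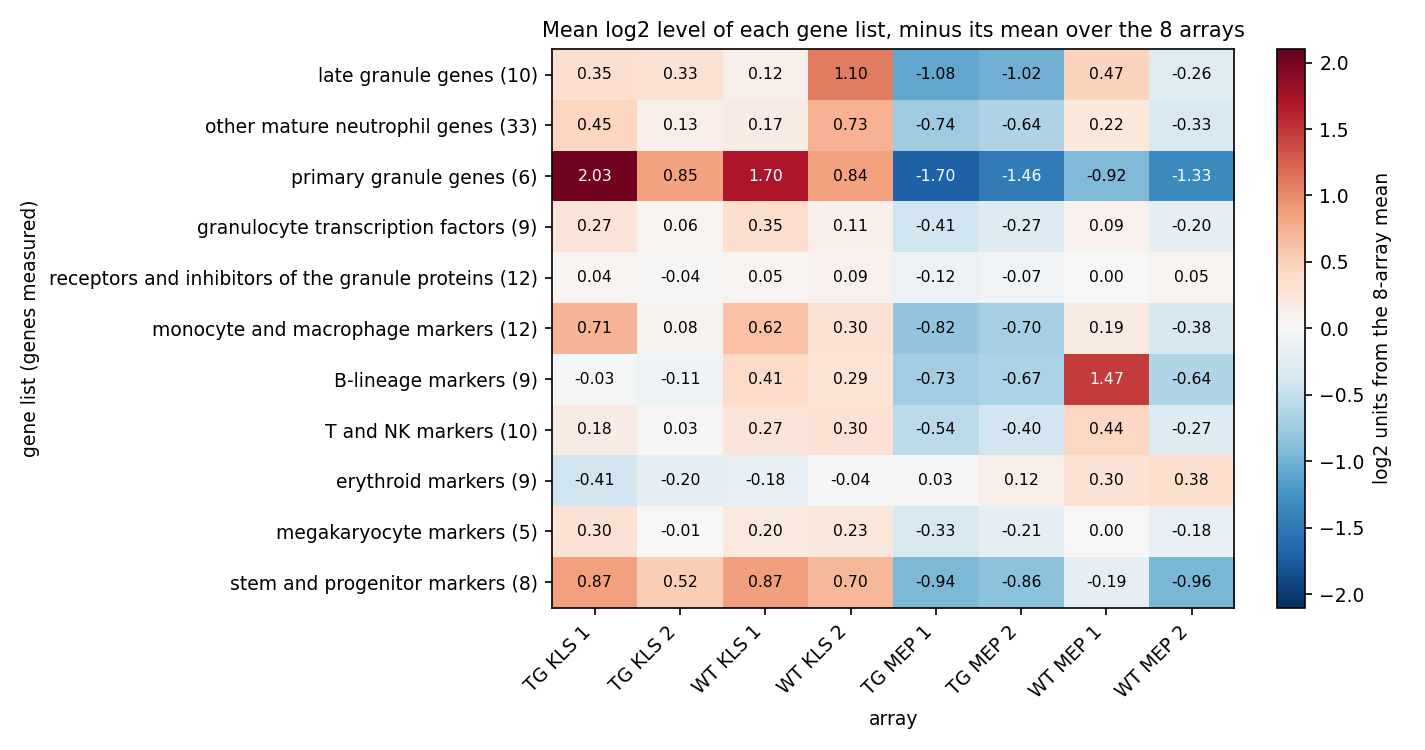
Heat map of the mean log2 level of each gene list (rows, with the number of genes measured) on each of the 8 arrays (columns), minus the list's mean over the arrays, in log2 units as colour and printed value. The late granule genes are lowest on both TG MEP arrays and highest on WT KLS 2, and the B-lineage markers are highest on WT MEP 1.

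Of the 9 granulocyte transcription factors, Spi1 (PU.1) was called higher in KLS cells (1.22 ± 0.20, adjusted p = 0.0343), and the list's median was 0.31 (0.46 without WT MEP 1). Cebpe, the C/EBP member that directs the specific granule genes, had a KLS minus MEP difference of 0.44 ± 0.17 (adjusted p = 0.250) and a TG minus WT difference in MEP cells of -0.21 ± 0.23 (-0.16 ± 0.30 without WT MEP 1). Cebpe was chosen after its values were seen. In TG minus WT in MEP cells 0 of 9 were called, and the smallest p was that of Cebpd (-0.44 ± 0.17, adjusted p = 1.00, and -0.39 ± 0.21 without WT MEP 1). Receptors and inhibitors of the granule proteins, such as Tlr4, Ager and the Timp genes, had 0 of 12 called in either comparison, with medians of 0.05 for KLS minus MEP and -0.01 for TG minus WT in MEP cells, which were -0.02 and -0.19 without WT MEP 1. Tlr4 lay away from these medians, at 0.58 ± 0.25 for KLS minus MEP and -0.81 ± 0.36 for TG minus WT in MEP cells. Its log2 level was 4.50 and 4.99 on the TG MEP arrays, against 5.99 and 5.12 on the WT MEP arrays. The smallest p of that list was that of Timp3, an inhibitor of metalloproteinases, for KLS minus MEP (0.36 ± 0.13, adjusted p = 0.240) and that of Cd36, a scavenger receptor, for TG minus WT in MEP cells (-1.0 ± 0.42, adjusted p = 1.00, and -0.78 ± 0.52 without WT MEP 1).

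Markers of other blood cells were set beside the 10 because a sorted fraction can hold some of them. The mean log2 level of the 12 monocyte and macrophage markers was 7.81 and 7.17 on the TG KLS arrays, against 7.71 and 7.40 on the WT KLS arrays, and 6.27 and 6.4 on the TG MEP arrays, against 7.28 and 6.72 on the WT MEP arrays. Their TG minus WT difference in MEP cells had a median of -0.67, with 11 of 12 below 0 and 0 called, and of -0.45 without WT MEP 1. Both TG MEP arrays lay below both WT MEP arrays for 9 of 12 (17.2% of all genes). The mean log2 level of the 10 T and NK markers was 6.45 and 6.3 on the TG KLS arrays, against 6.54 and 6.57 on the WT KLS arrays, and 5.73 and 5.87 on the TG MEP arrays, against 6.71 and 6.0 on the WT MEP arrays. These markers had a median of -0.53 in that comparison and of -0.15 without WT MEP 1, and both TG MEP arrays lay below both WT MEP arrays for 5 of 10. The B-lineage median was -1.12, and -0.01 without WT MEP 1, and both TG MEP arrays lay below both WT MEP arrays for 3 of 9. The megakaryocyte median was -0.12, and 0 genes of any of these lists were called for TG minus WT in MEP cells. For KLS minus MEP over both genotypes the monocyte and macrophage median was 0.76, with 11 of 12 above 0. Ms4a6c and Ctss of that list were called, and 1.2% of all genes were called higher. The T and NK median was 0.19, with Nkg7 called. The B-lineage and megakaryocyte medians were 0.23 and 0.11, with 0 called. Without WT MEP 1 these medians were, in the same order, 0.87, 0.22, 0.85 and 0.03.

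The median of the 9 erythroid markers in TG minus WT in MEP cells was 0.0041, and -0.07 without WT MEP 1, but single members lay far from it. Alas2, the first enzyme of heme synthesis in red cells, had log2 levels of 8.11 and 8.37 on the TG MEP arrays, against 9.63 and 9.26 on the WT MEP arrays. Its difference was -1.20 ± 0.24 (limma adjusted p = 1.00), and -1.02 ± 0.28 without WT MEP 1. Slc4a1, the anion exchanger of the red cell membrane, chosen after its values were seen, had 7.69 and 8.06 on the TG MEP arrays, against 9.51 and 9.15 on the WT MEP arrays, a difference of -1.46 ± 0.35 (limma adjusted p = 1.00) and of -1.28 ± 0.45 without WT MEP 1. For these 2 erythroid genes both TG MEP arrays lay below both WT MEP arrays.

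In the remaining lists the genes of smallest p for TG minus WT in MEP cells were Fn1 (fibronectin) among monocyte and macrophage markers, at -0.88 ± 0.22, and Cd3d (a T cell receptor subunit) among T and NK markers, at -0.85 ± 0.19. Without WT MEP 1 these were -0.55 ± 0.20 and -0.83 ± 0.25. The B cell receptor gene Cd79b had -1.70 ± 0.69, and -0.35 ± 0.35 without WT MEP 1. None of these was called. The part of the other cell types' markers in the late granule result was not tested.

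The genes outside the 10 whose array profile was most like theirs were found by the root mean square difference, over the 8 arrays, between a gene's centred log2 levels and the mean centred levels of the 10. The nearest were S100a4, an S100 protein of myeloid cells (0.127), Chil3, a chitinase-like protein (0.163), Plbd1, a phospholipase-like protein (0.175), Ccl6, a chemokine (0.184), and Clec4d, a lectin receptor (0.204). Pram1 (0.206), Itgam (0.220), Bank1 (0.222), Lyz2 (0.225) and Lsp1 (0.229) followed. Among the 10 themselves, each of which enters the mean, the same measure ran from 0.123 (Ltf) to 0.312 (S100a9).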

How the data were processed

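RNA of 8 preparations was measured on Affymetrix arrays, 2 per group, with groups and replicate numbers taken from the sample titles. The values deposited by the authors are log2 intensities (1.71 to 14.0), a scale read from the values themselves. The authors used Affymetrix Expression Console, per the submitters' processing notes, and the sources used here do not give its background correction or normalization. Array medians spanned 0.106, more than the limit of 0.1, so the arrays were quantile normalized. Of 35556 probe sets, 21789 had 1 gene symbol, and the brightest per gene gave 19938 genes. Group means were fitted to all 8 arrays with limma 3.58.1 in R 4.3.3 (lmFit, eBayes), with 4 residual and 4.82 prior degrees of freedom. Tests were two-sided, with Benjamini-Hochberg adjustment over the 19938 genes and a threshold of 0.05 on the adjusted p. Errors are limma's SE. The fit was tested on simulated data. Promoter windows came from RefSeq.

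The 10 genes and all lists were chosen with earlier results of these data known. Beside the 10, genes were named by profile likeness (10 genes) and, in each other list, as up to 4 called genes of largest change, or the gene of smallest p where none was called, and not every such gene is printed. Preparations are independent per the labels, so p-values measure the spread between pools of mice. The number of arrays limits the precision, and depth does not apply. The deviations of same-numbered arrays correlated at -0.28 to 0.38 between groups, above 0.1 for 3 of 6 pairs of groups and below 0 for the other 3, all with TG MEP, so the numbers were not taken to pair the arrays. Alternatives covered scaling, filters, probe sets, variance estimates, weights, thresholds, the replicate block and each array left out. The values of the other lists and genes without WT MEP 1 were added after seeing the data.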

Additional observations from a re-analysis of the deposited data

How the results depend on the processing

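For KLS minus MEP over both genotypes, 1 gene of the 10 passed. It was 0 with the values as deposited, with arrays centred on their medians, with probe sets tested singly and with robust variances. It was 3 without the dimmest 30% of genes (3.12% of the 13956 genes left called, in either direction). With the replicate block it was also 3 (2.82% of all genes). It was 4 with an intensity trend (1.99%) and 4 with array weights (2.07%). At an adjusted p under 0.10 it was 6, and the share of all genes under that looser threshold was not counted. With each array left out it lay between 0 and 6, with 6 without WT KLS 1, 4 without WT MEP 1 and 0 without any of the other 6. Ngp itself passed in 1 of these 8 fits. For KLS minus MEP in TG, 0 passed (0.135% of all genes called, in either direction). It was 2 with array weights (0.446%) and 7 with the TG arrays alone (1.42%). For TG minus WT in MEP cells, 0 passed with all arrays (0% of all genes). With an MEP array left out, 1 array of its group remains, and only sizes are given for the 10 genes. The cause of these shifts in the counts was not tested. Over all genes, calls for KLS minus MEP numbered 319, against 123 median centred, 173 singly, 562 with the replicate block, and 1 to 732 with an array left out (1 for TG MEP 1, 24 for TG MEP 2, 30 for TG KLS 1, 103 for WT MEP 2, 117 for WT KLS 1, 137 for WT KLS 2 and 732 for WT MEP 1). In TG they numbered 27, against 284 with the TG arrays alone, 89 with array weights, 111 with the block, 11 with robust variances, 1 median centred, 1 singly and 0 to 259 with an array left out (0 for either TG MEP array, 1 for TG KLS 1, 17 for TG KLS 2, 255 for WT MEP 1 and 259 for WT MEP 2). In WT they numbered 1, against 8 with the block, 0 with the WT arrays alone, 60 without WT MEP 1, 5 without WT MEP 2 and 2 without either TG KLS array. Without WT MEP 2, calls between TG and WT numbered 140 in MEP cells, 67 over both cell types and 10 for the interaction, against 0 with all arrays. The replicate numbers were not taken to pair the arrays.

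Medians with an array left out ran from 0.68 to 1.24 for KLS minus MEP, 0.12 to 0.98 in WT, -1.61 to -0.75 for TG minus WT in MEP cells, -0.79 to 0.15 in KLS cells, -1.05 to -0.42 over both and 0.48 to 1.36 for the interaction. Signs turned in single-gene values only with an array left out, among the alternatives tried. For KLS minus MEP in WT these ran from -0.052 to 0.43 (S100a9), -0.34 to 1.36 (Lcn2), -0.50 to 0.91 (Mmp8) and -0.46 to 0.88 (Retnlg). For TG minus WT in KLS cells they ran from -0.45 to 0.12 (S100a8), -0.28 to 0.13 (S100a9), -0.90 to 0.30 (Camp), -0.93 to 0.066 (Ltf), -1.01 to 0.69 (Lcn2), -0.77 to 0.24 (Mmp8), -0.78 to 0.56 (Retnlg) and -0.98 to 0.17 (Wfdc21), and for the interaction from -0.27 to 0.87 (Wfdc21). A level of one gene is not set against another's, and 2 arrays per group limit every comparison.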
